A study of Mus musculus with 4 samples.

Results

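The NF-kappaB genes examined here are 10 genes, chosen by gene name: the 5 subunits of the transcription factor (Rela, Relb, Rel, Nfkb1, Nfkb2) and 5 genes that NF-kappaB induces and that act back on it or cooperate with it (Bcl3, Nfkbia, Nfkbiz, Tnfaip3, Birc3). They were read by 13 of the 55681 gene probes of a mouse expression array, on 14 of its 59305 gene spots, and are 10 of its 35715 gene names. The samples were 3D-retinas, optic-cup-like retinal tissue formed in floating culture by mouse iPSCs (induced pluripotent stem cells) that carry the Nrl-GFP reporter, a green fluorescent marker of rods, and picked for bright fluorescence. Treatment began on day 23 of differentiation, and tissue was taken on day 25, as the reporter's fluorescence stopped gaining. The 4 groups were 4-hydroxytamoxifen (4-OHT, which the body forms from the breast cancer drug tamoxifen, 5 µM) with the lipid-soluble antioxidant vitamin E (400 µM), 4-OHT (5 µM) with the macular carotenoid lutein (200 nM), 4-OHT alone (5 µM), and the ethanol vehicle alone. Each group was 1 array of RNA from 24 pooled 3D-retinas, so that no difference below has a replicate check or a p-value. Differences are sizes between single arrays, and 2-fold was the fixed limit for counting a gene.

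NF-kappaB works as pairs of subunits. Rela and Nfkb1 products form the main pair of the canonical branch, which is held in the cytoplasm by Nfkbia (IkappaB-alpha) until that inhibitor is degraded, whereas Relb and Nfkb2 products form the pair of the slower non-canonical branch. The factor induces its own inhibitors, and in retina it is known from Müller glia and microglia after injury as well as from neurons. Bcl3 and Nfkbiz encode nuclear proteins of the IkappaB family that bind NF-kappaB on DNA and can activate transcription. Tnfaip3 encodes a ubiquitin-editing enzyme that shuts off signalling above the IKK kinases, and Birc3 a ubiquitin ligase of the TNF receptor complex.

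Because several of these genes are known NF-kappaB targets, their promoters were searched for the kappaB consensus, the site of 10 bases that the factor binds, on both strands. The windows ran from 250 bases before to 50 bases after each RefSeq start (build GRCm38.p6). Of the 10 genes 7 had a window, and Nfkbiz, Nfkb1 and Relb had none. A match was present for Bcl3, Nfkbia, Nfkb2, Rel and Tnfaip3, and in none of the windows of Rela and Birc3. Over all promoters, 4.51% of 32851 windows and 5.14% of 27025 genes held a match. The 4 windows below belong to 3 genes that were higher with 4-OHT and to Tnfaip3, which was lower, and capitals mark the matches. They lie at chr7:19822706-19823005 on the minus strand (Bcl3), chr12:55492598-55492897 on the minus strand (Nfkbia), chr19:46304487-46304786 on the plus strand (Nfkb2) and chr10:19015361-19015660 on the minus strand (Tnfaip3).
Bcl3: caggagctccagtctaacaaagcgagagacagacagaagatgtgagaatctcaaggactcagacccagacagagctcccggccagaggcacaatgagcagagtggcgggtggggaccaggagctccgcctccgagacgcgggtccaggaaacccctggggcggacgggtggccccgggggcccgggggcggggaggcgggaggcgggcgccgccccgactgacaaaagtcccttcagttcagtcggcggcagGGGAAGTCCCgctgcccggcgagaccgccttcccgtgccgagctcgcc
Nfkbia: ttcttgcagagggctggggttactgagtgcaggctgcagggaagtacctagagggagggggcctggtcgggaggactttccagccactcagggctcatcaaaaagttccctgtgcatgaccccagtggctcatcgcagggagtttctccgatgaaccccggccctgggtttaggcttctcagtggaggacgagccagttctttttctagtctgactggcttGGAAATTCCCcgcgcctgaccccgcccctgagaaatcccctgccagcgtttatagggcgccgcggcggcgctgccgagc
Nfkb2: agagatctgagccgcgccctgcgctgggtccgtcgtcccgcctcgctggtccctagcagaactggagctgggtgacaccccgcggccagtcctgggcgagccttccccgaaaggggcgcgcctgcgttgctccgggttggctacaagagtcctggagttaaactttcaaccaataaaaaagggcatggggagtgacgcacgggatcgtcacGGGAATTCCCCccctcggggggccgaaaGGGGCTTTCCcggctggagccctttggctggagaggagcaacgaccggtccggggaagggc
Tnfaip3: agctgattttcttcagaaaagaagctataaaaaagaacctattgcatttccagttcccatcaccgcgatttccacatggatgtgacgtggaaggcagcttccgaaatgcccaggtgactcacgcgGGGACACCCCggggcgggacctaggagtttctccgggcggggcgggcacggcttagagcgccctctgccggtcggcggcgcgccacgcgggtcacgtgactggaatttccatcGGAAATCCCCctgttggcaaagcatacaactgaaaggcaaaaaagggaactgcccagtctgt
The Bcl3 match began 3 bases after the start and the Nfkbia match 29 bases before it. In the Nfkb2 window 3 matches formed 2 runs: a pair that overlap by all but 1 base began 39 and 38 bases before the start, and a further match 11 bases before it. The Tnfaip3 matches began 125 and 12 bases before the start. A match describes these letters only, and binding was not measured.

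Signals are given relative to the array's 75th percentile of gene spots, which is 1. A spot counted as detected when the scanner software marked it well above background. Between 51.3% and 54.5% of gene spots were detected on an array, and no spot was saturated. For 399 probes with 10 spots, the scatter of repeated spots gave a log2 difference an SD of 0.15 to 0.20 over all levels. This SD was 0.07 to 0.08 where log2 levels exceeded 1, and 0.39 to 0.53 where they were under -3. It covers spot noise and not the spread between cultures. The retinal identity of the samples was read from marker genes: 9 of 9 rod markers were detected on every array and 9 of 10 Müller glia markers. In bulk samples like these, fewer cells of a type and less RNA per cell cannot be told apart.

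The first comparison asked which of these genes differed after exposure to 4-OHT. Of the 8 genes detected on the 4-OHT or vehicle array, 5 exceeded vehicle by 2-fold or more with 4-OHT (Bcl3, Relb, Nfkb2, Nfkbiz and Nfkbia) and 0 lay 2-fold below it, against 7.74% of all 22068 genes measured that were higher and 3.14% that were lower. Rela and Nfkb1 were higher by less than 2-fold, and Tnfaip3 was lower. The median log2 difference of the 8 was 1.54, against -0.06 for all genes. Bcl3 was not well above background with vehicle and entered only through the 4-OHT array, where it was high. With detection required on both arrays, 4 of 7 were higher, against 6.38% of genes, and the median was 1.23 against -0.09. Rel and Birc3 were not detected on any array.

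**Figure D1:**
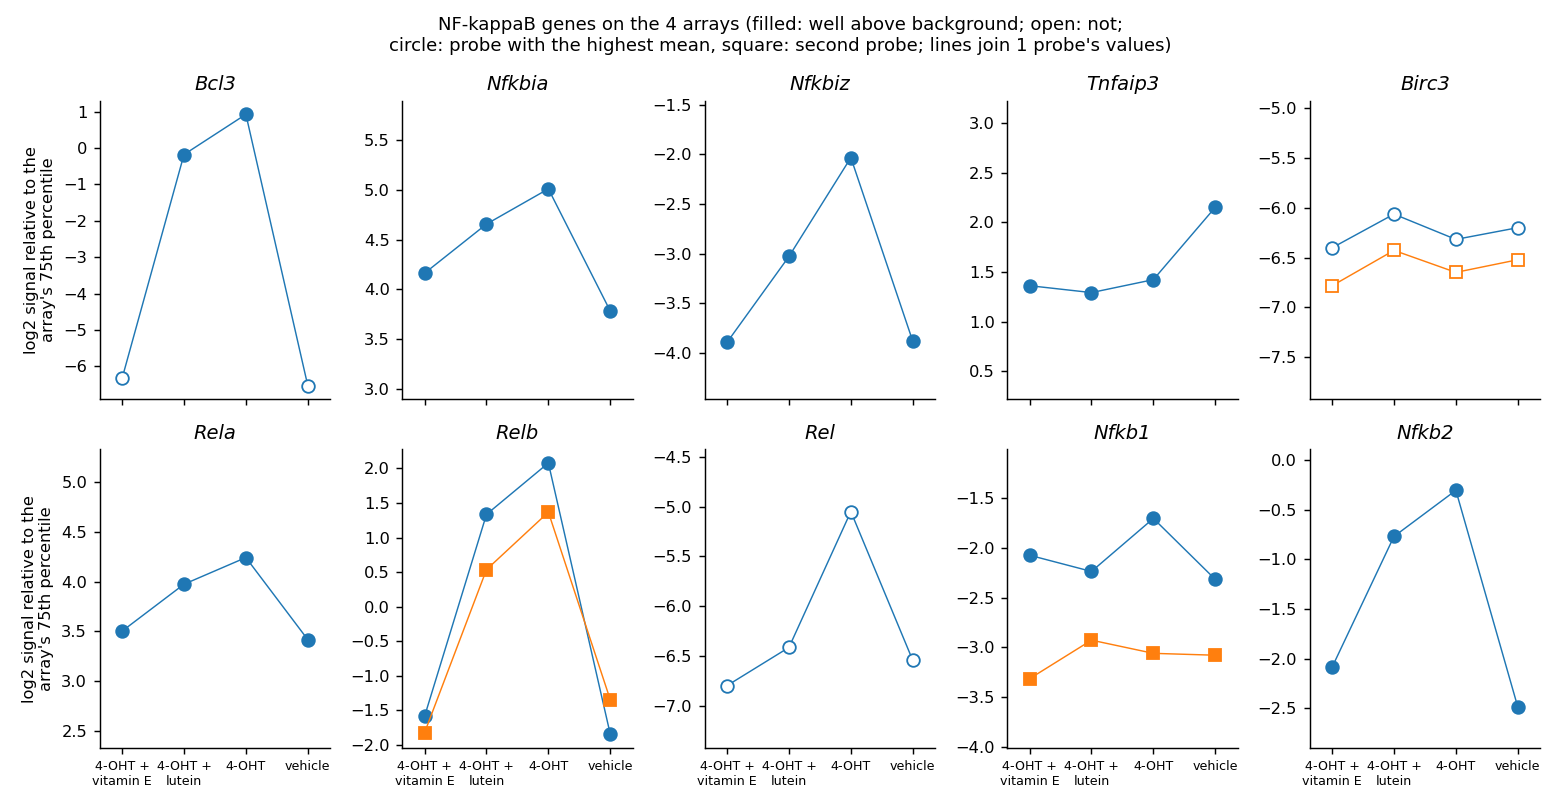
Signal of each NF-kappaB gene on the 4 arrays, as log2 relative to the array's 75th percentile (vertical axis, its own range in each panel, with a span of at least 3). Circles are the probe with the highest mean and squares a second probe, filled where well above background, and each point is 1 array. Relb stood at 2.08 with 4-OHT and -1.84 with vehicle, and Tnfaip3 is the 1 detected gene whose vehicle array is highest.

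Bcl3, the nuclear IkappaB-family cofactor, gave the widest span. Its signal was 0.0124 with vitamin E, 0.884 with lutein, 1.90 with 4-OHT alone and 0.0108 with vehicle, on a probe at chr7:20393826-20393885 (mm9, minus strand). It was thus detected with 4-OHT alone and with lutein, whereas neither the vitamin E nor the vehicle spot was well above background. Set against the lowest detected signal on the vehicle array (0.0515), Bcl3 was at least 36.9-fold higher with 4-OHT alone. This bound, a log2 difference of 5.21, was 5.07 on spike-in scaling and depended on the background correction. With the normexp background correction the log2 difference was 3.76.

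Nfkbia, the inhibitor that holds the canonical pair in the cytoplasm, was bright on every array. Its signal was 17.9 with vitamin E, 25.2 with lutein, 32.2 with 4-OHT alone and 13.8 with vehicle. The 4-OHT array was 2.34-fold above vehicle, with at least 5.50% of genes further above (at least, because genes dim on 1 array enter by their bound). The files mark the Nfkbia and Nfkb2 probes as unmapped in mm9. Nfkbiz, the inducible nuclear IkappaB-zeta, was dim, at 0.0675 with vitamin E, 0.123 with lutein, 0.244 with 4-OHT alone and 0.0680 with vehicle (chr16:55817859-55817918, mm9, minus strand). It was 3.59-fold higher with 4-OHT (log2 difference 1.85), at vehicle levels where the SD from spots reached 0.53, and the log2 difference was 0.97 with the normexp background correction, short of 2-fold.

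Tnfaip3, the deubiquitinase that is itself a standard NF-kappaB target, went the other way. Its signal was 2.57 with vitamin E, 2.45 with lutein, 2.68 with 4-OHT alone and 4.44 with vehicle (chr10:18720776-18720835, mm9, minus strand). The 3 arrays with 4-OHT lay close together, and all 3 were below vehicle. The log2 differences from vehicle were -0.79 with vitamin E, -0.86 with lutein and -0.73 with 4-OHT alone, where the SD from spots was 0.07 to 0.08. No difference reached 2-fold. With vitamin E at least 3.49% of genes lay further below vehicle, with lutein at least 2.13% and with 4-OHT alone at least 8.13%.

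Birc3 was read by 2 probes, at 0.0118 and 0.00908 with vitamin E, 0.0150 and 0.0116 with lutein, 0.0125 and 0.00996 with 4-OHT alone, and 0.0136 and 0.0109 with vehicle. All 8 values were below the lowest detected signal of their array, which was 0.0430 to 0.0570. For the second of these probes the files give a position on chromosome 12 (chr12:116482395-116482454, mm9), whereas RefSeq places the gene on chromosome 9, where the first probe also lies (chr9:7856162-7856221, mm9).

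Among the subunits, Relb, the transactivating partner of the non-canonical pair, differed most. Its brighter probe (chr7:20191722-20191781, mm9, minus strand) read 0.333 with vitamin E, 2.52 with lutein, 4.22 with 4-OHT alone and 0.279 with vehicle, which made it 15.2-fold higher with 4-OHT than with vehicle. The second probe (chr7:20191773-20191832) shares 9 bases with the first and read 0.283 with vitamin E, 1.45 with lutein, 2.58 with 4-OHT alone and 0.393 with vehicle, a 6.56-fold difference for 4-OHT against vehicle. Both probes put the arrays with 4-OHT alone and with lutein above those with vitamin E and vehicle. A probe for another Relb transcript, which the files name by an Ensembl transcript and describe as splice variant 4, lies 11336 bases away (chr7:20203058-20203117). It read 0.416 with vitamin E, 0.445 with lutein, 0.406 with 4-OHT alone and 0.406 with vehicle, and for 4-OHT against vehicle its fold was 1.00. It is not one of the 13 probes chosen by gene name.

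Nfkb2, whose product is the DNA-binding partner of Relb, read 0.236 with vitamin E, 0.586 with lutein, 0.809 with 4-OHT alone and 0.179 with vehicle. It was 4.52-fold higher with 4-OHT, and at least 1.30% of genes lay further above. Rela, the main transactivating subunit of the canonical pair, read 11.3 with vitamin E, 15.7 with lutein, 18.9 with 4-OHT alone and 10.7 with vehicle (chr19:5648070-5648129, mm9, plus strand). Its log2 difference of 0.82 for 4-OHT against vehicle was short of 2-fold.

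Nfkb1, the DNA-binding partner of Rela, was not resolved. One probe (chr3:135254550-135254609, mm9, minus strand) read 0.238 with vitamin E, 0.212 with lutein, 0.307 with 4-OHT alone and 0.201 with vehicle, a log2 difference of 0.61 for 4-OHT against vehicle. The other (chr3:135247621-135247680) had 2 spots on each array, and their log2 differences were 0.24 and -0.20, with a mean of 0.02. The SD from spots was up to 0.22 at the levels of the first probe and up to 0.53 at those of the second. Rel, the subunit typical of lymphoid cells, read 0.00899 with vitamin E, 0.0117 with lutein, 0.0302 with 4-OHT alone and 0.0107 with vehicle (chr11:23641998-23642058, mm9, minus strand). All 4 values were below the lowest detected signal of their array, so that no fold is given.

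The next comparison asked which of these genes differed when vitamin E was added to 4-OHT. No array had vitamin E or lutein without 4-OHT. An altered response to 4-OHT and an effect of the supplement itself therefore cannot be told apart. With vitamin E, 4 of 8 genes (Bcl3, Relb, Nfkbiz and Nfkb2) were at least 2-fold lower than with 4-OHT alone and 0 were higher, against 8.79% of all 22142 genes that were lower and 1.48% that were higher. All 8 lay below 0, as did 43.1% of all genes, with a median log2 difference of -1.31 against 0.08 for all genes. Here too Bcl3 entered only through the 4-OHT array. With detection required on both arrays, 3 of 7 were lower, against 6.74% of genes, and the median was -0.85 against 0.11. Bcl3 was at least 44.2-fold lower, a log2 difference of -5.47 that was -4.02 with normexp. Relb was 12.7-fold lower by its brighter probe and 9.12-fold by the other, Nfkbiz 3.62-fold and Nfkb2 3.43-fold lower. With normexp the log2 difference of Nfkbiz was -0.96, short of 2-fold. Nfkbia and Rela had log2 differences of -0.85 and -0.74, both short of 2-fold, although Nfkbia passed it after quantile normalization (-1.01), which made the count 5. Tnfaip3 differed by less than the SD from spots, at -0.06.

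Set against vehicle, the vitamin E array showed 0 of 7 measured genes past 2-fold in either direction, against 1.09% of 21348 genes that were higher and 1.98% that were lower. The median log2 difference of the 7 was 0.24 and that of all genes -0.02. Nfkb2 and Nfkbia were nearest to the limit from above, at 0.40 and 0.38, followed by Relb at 0.26. The second Relb probe had -0.48, so that the direction for Relb differed between probes. Nfkbiz stood at -0.01. Tnfaip3, at -0.79, was the member farthest from vehicle. The 4-OHT array enters each comparison against 4-OHT and the vehicle array each comparison against vehicle, so these comparisons are not independent of each other.

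**Figure D2:**
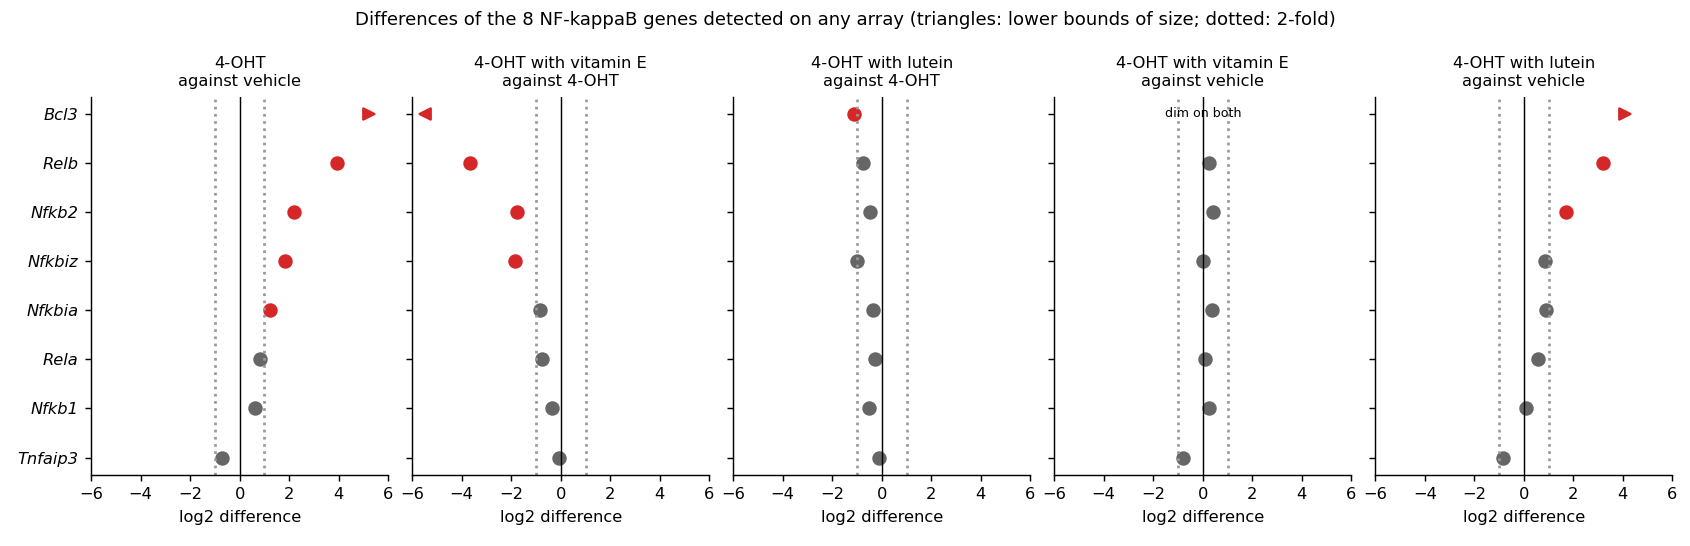
Log2 differences (horizontal axes) of the 8 NF-kappaB genes detected on any array, in 5 comparisons of single arrays. Red points are at least 2-fold apart, triangles are bounds, and dotted lines mark 2-fold. For vitamin E against vehicle the 7 measured genes lie between -0.79 and 0.40, and Bcl3, dim on both arrays, has no value. For lutein against vehicle Bcl3, Relb and Nfkb2 are past 2-fold.

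Adding lutein to 4-OHT put the same question to the carotenoid. Of 8 genes 1, Bcl3, was at least 2-fold lower than with 4-OHT alone and 0 were higher, against 3.82% of 21982 genes that were lower and 1.15% that were higher. All 8 again lay below 0, as did 38.2% of all genes, with a median of -0.50 against 0.08 for all genes. Bcl3 was 2.15-fold lower and Nfkbiz 1.99-fold lower, on either side of the limit, and Nfkbiz passed it on scaling to the median of detected probes (-1.01). The Bcl3 call, and with it the count, was lost on spike-in scaling (-0.997) and with normexp (-0.99). Relb had a log2 difference of -0.74, and its second probe -0.83. Nfkb2 had -0.46, Nfkbia -0.35 and Rela -0.27. Nfkb1 had -0.53 by the brighter probe and 0.13 by the other.

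Against vehicle, the lutein array held 3 of 8 genes at least 2-fold higher and 0 lower, against 3.44% of 21339 genes that were higher and 1.49% that were lower. Their median log2 difference was 0.86, and that of all genes -0.01. Bcl3 entered only through the lutein array. With detection required on both arrays, 2 of 7 were higher, against 2.41% of genes, and the median was 0.85. Bcl3 was at least 17.2-fold, Relb 9.06-fold and Nfkb2 3.28-fold higher. Their log2 differences were 4.10, 3.18 and 1.71 in that order, and 2.77, 2.67 and 1.20 with normexp. Nfkbia and Nfkbiz had log2 differences of 0.87 and 0.85, and Rela had 0.56. The doses of the supplements differ (400 µM and 200 nM), so vitamin E and lutein were not set against each other.

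**Figure D3:**
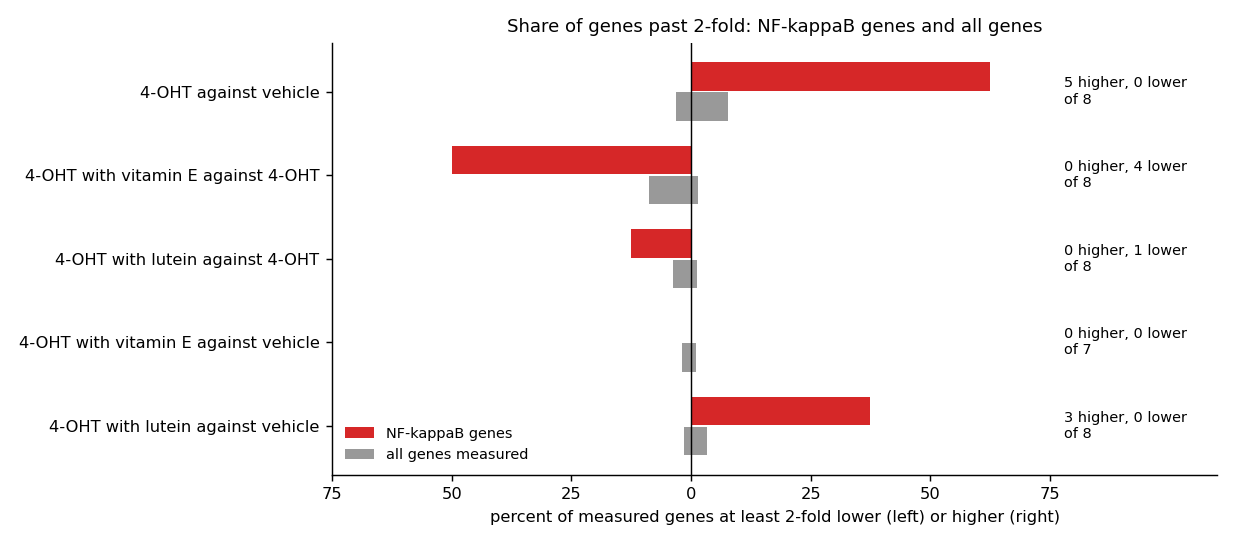
Percent of measured genes at least 2-fold lower (left of 0) or higher (right of 0) in each comparison, for the NF-kappaB genes (red) and for all genes measured (grey). The numbers at the right are counts of NF-kappaB genes. For 4-OHT against vehicle 5 of 8 were higher, against 7.74% of all genes. Bcl3, among them, was not well above background with vehicle.

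The members' profiles over the 3 differences from vehicle were set against 12119 genes with a symbol detected on all arrays. The closest profile to Relb was that of Tnfrsf12a, a receptor of the TNF family, with a root mean square distance of 0.09 on the log2 scale. For Relb 3 genes lay within 0.25, whereas 36 did for Nfkb2, 35 for Nfkbiz, 188 for Nfkbia and 543 for Rela. The closest were Dusp4, a MAP kinase phosphatase, for Nfkb2 (0.03), Ghrl, the ghrelin gene, for Nfkbiz (0.06), Cabp1, a neuronal calcium-binding protein, for Nfkbia (0.02), and Dusp8, also a MAP kinase phosphatase, for Rela (0.03). Likeness here rests on 3 differences that share the vehicle array, and on 1 probe per gene. The Relb probe used had 3.92 with 4-OHT alone, 3.18 with lutein and 0.26 with vitamin E. The second Relb probe had 2.71, 1.88 and -0.48, further away than the distance to Tnfrsf12a. The distances were not set against spot noise, whose SD reached 0.53 at the vehicle level of Nfkbiz.

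The rest of the pathway was described by role, in lists chosen with earlier results of these data known. The list counts stand beside the shares of all genes past 2-fold. For 4-OHT against vehicle 7.74% of all genes were higher and 3.14% lower. For vitamin E against 4-OHT these shares were 1.48% and 8.79%, and for lutein against 4-OHT 1.15% and 3.82%. Of 12 ligands 2 were detected, Il18 and Tnfsf12, and 10 were not detected on any array, including Tnf, Lta, Ltb, Il1a and Il1b. The detected pair had log2 differences of -0.83 and -0.14 for 4-OHT against vehicle. Ligand RNA of the classical inducers was thus not detectable on these arrays.

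Of 14 receptors 6 were measured for 4-OHT against vehicle, and 3 were at least 2-fold higher and 1 lower. Tnfrsf12a, the receptor for the cytokine TWEAK (Tnfsf12), read 1.68 with vitamin E, 14.3 with lutein, 22.5 with 4-OHT alone and 1.43 with vehicle. It was 15.7-fold higher with 4-OHT than with vehicle. Tnfrsf1a, the main receptor for TNF, was 4.59-fold higher and Ltbr, the lymphotoxin beta receptor, 2.90-fold higher. Tnfrsf13c, a receptor of B cells, was at least 2.13-fold lower, on a signal of 0.101 with vehicle. With vitamin E 3 of 6 receptors were at least 2-fold lower than with 4-OHT alone: Tnfrsf12a by 13.4-fold, Tnfrsf1a by 3.08-fold and Ltbr by 2.17-fold. With lutein 0 of 6 were.

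Between receptors and NF-kappaB, of 9 measured IKK and upstream kinases 0 were past 2-fold in any of the 5 comparisons. Map3k14, the kinase that starts the non-canonical branch, had -0.27 for 4-OHT against vehicle. The largest differences in this list were those of Tab1, Ikbkg and Tab3, at -0.43, -0.37 and -0.34. Of 17 adaptors and ubiquitin ligases 0 were past 2-fold for 4-OHT against vehicle, 1 (Traf6) was below its 4-OHT level with vitamin E and 1 above it with lutein. The last was Traf1, a signalling adaptor, at least 5.49-fold higher with lutein on a signal of 0.261 against 0.0395, not well above background, with 4-OHT alone, and 3.57-fold higher than with vehicle. Traf6, an adaptor and ubiquitin ligase, was 2.27-fold lower with vitamin E and is named after its values were seen. For 4-OHT against vehicle Xiap, Ticam1 and Ripk1 of this list had -0.84, 0.64 and 0.61. All 4 measured IkappaB-related genes outside the member list were short of 2-fold, with Nfkbie at 0.47. Of 11 other negative regulators 1 was past 2-fold, Tnip2, a partner of the Tnfaip3 protein, at 2.70-fold higher, while the list's median was -0.28. Cyld and Otulin, deubiquitinases that also limit the pathway, had -0.52 and -0.49.

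Of 20 measured genes listed as NF-kappaB targets, 8 exceeded vehicle by 2-fold or more with 4-OHT and 0 lay 2-fold below it. Their median was 0.76. Of all genes measured, 7.74% were higher and 3.14% lower. Gadd45b, a stress-response protein, was 18.0-fold higher, Cxcl10 at least 23.1-fold, Ccl2 at least 17.0-fold and Cxcl1 at least 12.5-fold. The other 4 were Irf1 (9.89-fold), Cebpd (4.82-fold), Ptgs2 (at least 3.38-fold) and Cxcl2 (at least 3.24-fold). The chemokines Cxcl10, Ccl2, Cxcl1 and Cxcl2, and Ptgs2, were not well above background with vehicle. They entered the measured set only through the 4-OHT array, where they were high, and both the count and the median include them. Of the targets detected on both arrays, only Gadd45b, Irf1 and Cebpd were past 2-fold. Irf1, Cebpd, Ptgs2 and Cxcl2 are named because they completed the count and after their values were seen. In all 14 of the 20 targets lay above 0. The 12 short of 2-fold ranged on both sides, among them Csf1, a macrophage growth factor, at 0.90, Vcam1, an adhesion molecule, at 0.77, Sod2, the mitochondrial superoxide dismutase, at -0.66 and Bcl2l1, an anti-apoptotic BCL-2 protein, at -0.60, all also singled out after their values were seen. Il6, Icam1 and 5 other targets were not detected on any array. With vitamin E 9 of 20 targets were at least 2-fold lower than with 4-OHT alone and 0 higher, against 8.79% and 1.48% of all genes. This count also includes Cxcl10, Ccl2, Cxcl1, Cxcl2 and Ptgs2, which were not well above background with vitamin E. They entered only through the 4-OHT array, where they were high. Of the targets detected on both of these arrays, only Gadd45b, Irf1, Cebpd and Vcam1 were past 2-fold. With lutein 1 of 19 was lower, against 3.82% of all genes.

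**Figure D4:**
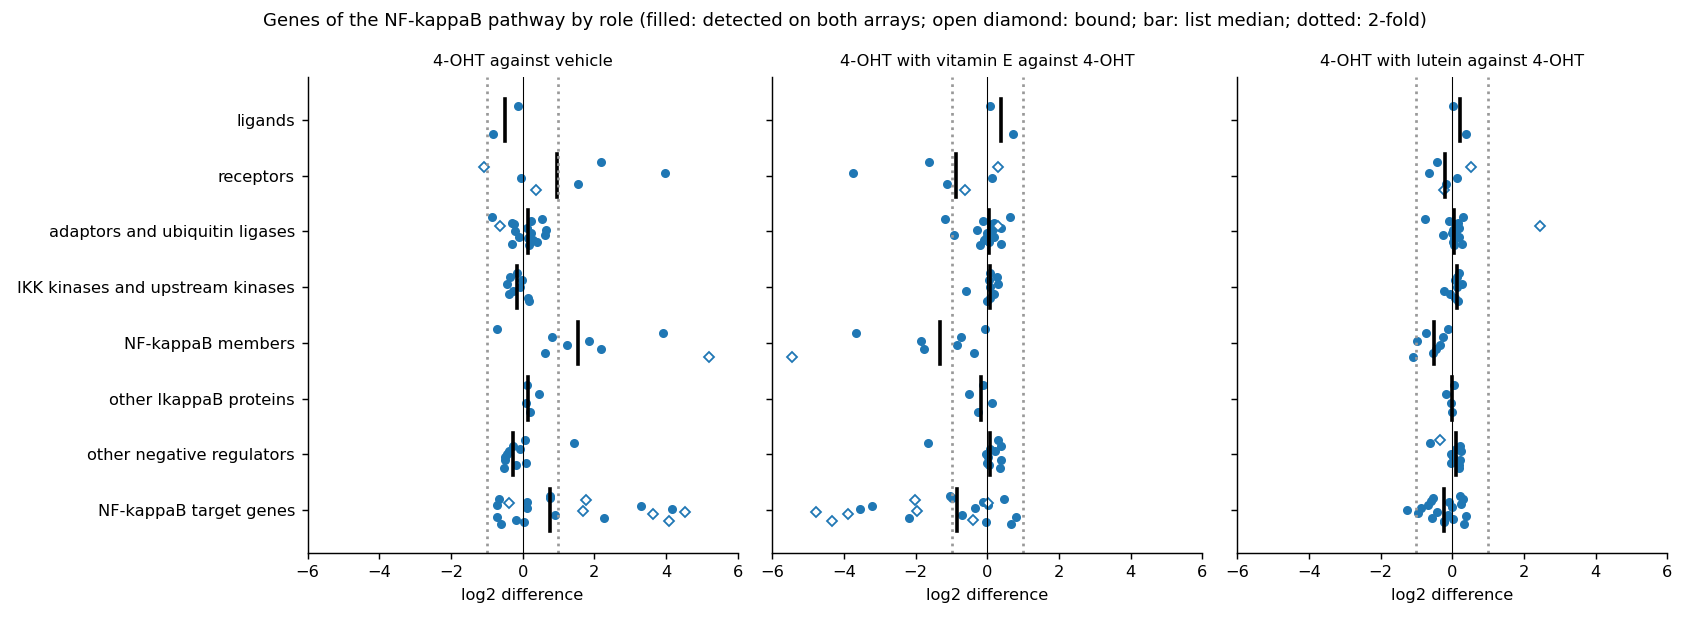
Log2 differences (horizontal axes) of NF-kappaB pathway genes by role in 3 comparisons. Filled points were detected on both arrays, open diamonds are bounds, black bars are list medians, and dotted lines mark 2-fold. For 4-OHT against vehicle the kinases centre at -0.15 and the NF-kappaB genes at 1.54.

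Markers of cells that could add NF-kappaB transcripts were read on the same arrays. Their counts for 4-OHT against vehicle stand beside 7.74% of all genes that were higher and 3.14% that were lower. Of 12 microglia and leukocyte markers 7 were not detected on any array (Ptprc, Aif1, Cx3cr1, P2ry12, C1qa, Fcgr1 and Adgre1). The summed signal of the 12 was 12.9 with vitamin E, 17.4 with lutein, 32.0 with 4-OHT alone and 12.9 with vehicle, and Itgam alone made up 28.2 of the 4-OHT sum. For 4-OHT against vehicle 5 were measured, of which 2 lay 2-fold or more above and 1 below (median 0.27). Itgam had a log2 difference of 1.49, and Cd68, which also marks lysosomes in other cells, had 2.38. Tmem119, a marker of resident microglia, was at least 4.04-fold lower, C1qb had 0.27 and Csf1r 0.10. Their part in the NF-kappaB differences was not tested. Of 7 endothelial markers 4 were not detected on any array, among them Cdh5 and Tie1. The summed signal was 21.0 to 23.8, and Kdr alone made up 23.3 of the 23.8 with 4-OHT. With 4-OHT 1 of 3 measured was at least 2-fold higher. This was Cldn5, at least 4.39-fold higher and not well above background with vehicle.

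The resident retinal classes moved differently, and their counts stand beside the same shares of all genes (7.74% higher and 3.14% lower). Of 9 rod markers 4 lay 2-fold or more below vehicle with 4-OHT and 0 above it (median -0.90), and their summed signal was 907 with vitamin E, 683 with lutein, 532 with 4-OHT alone and 1146 with vehicle. Of 10 Müller glia markers 1 was higher, Sox9, and the median was -0.04, with summed signals of 95.3 to 111. Pigment epithelium markers summed to 9.03 with vitamin E, 10.9 with lutein, 11.9 with 4-OHT alone and 3.22 with vehicle. Dct, a melanin enzyme also made by other pigment cells, carried that sum, at 10.7 with 4-OHT alone and 1.98 with vehicle. It was the 1 of 5 measured that was 2-fold higher, and Mitf, Tyrp1 and Pmel lay below 0 (median -0.12). Of 6 bipolar markers 2 were higher and 1 lower, and of 8 amacrine and ganglion cell markers 0 were higher and 2 lower. Which cells carried the NF-kappaB transcripts cannot be read from bulk RNA.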

How the data were processed

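RNA of each pooled sample (50 ng, per the labels' protocols) was labelled with Cy3 and hybridised to a 1-colour array, which was read with Agilent Feature Extraction (the submitters' processing notes give version 10.7.3.1). The deposited intensity of a spot was, per the file headers, background-subtracted and detrended within its array, with probe positions on mm9; exons and UTRs were not assigned. The value table deposited by the authors gives linear signal divided by 1 number per array (468.9 for vitamin E, 479.2 for lutein, 434.1 for 4-OHT and 494.2 for vehicle, by comparison with the scanner files). It is neither logged nor centred, its column medians were 0.0736 for vitamin E, 0.0847 for lutein, 0.0949 for 4-OHT and 0.0794 for vehicle, and it served as an alternative. The file of the lutein array gives 3 significant digits and 57 altered gene names, 0 of them of a member, so names came from the vehicle array.

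Intensities were scaled on each array's 75th percentile of gene spots and log2-transformed, outlier spots (137 to 164 per array) were left out, and spots of a probe were averaged. The probe with the highest mean stood for a gene. A gene was measured if detected on at least 1 of the arrays compared; a value not well above background was replaced by the array's lowest detected signal (or kept where higher), which makes the difference a bound. All 4 arrays shared 1 slide and 1 scan, so array position and group cannot be told apart. With 1 array per group, the number of arrays limits the precision and no test was made. The counting steps were tested on simulated data. Members, lists and comparisons were chosen with earlier results of these data known. All members were named. From other lists the rule was to name the 4 largest differences for 4-OHT against vehicle, with the count completed where stated. This rule was not followed in every list: some of those genes are left out, and some genes outside the 4 are named. For profiles, the 5 members with the largest differences were named. Of 28 listed targets 27 were on the array. Alternatives were other scalings (detected probes' median, quantile, 7 of 10 spike-in probes detected on every spot), normexp with offset 50 (limma 3.58.1, R 4.3.3), averaging a gene's probes, requiring detection on both arrays, a 1.5-fold limit and the authors' table. Other steps used Python 3.11.15, NumPy 2.4.6, pandas 2.3.3 and matplotlib 3.10.9.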

Additional observations from a re-analysis of the deposited data

How the results depend on the processing

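No paired analysis was possible because the groups hold a single array each. Of the 13 member differences past 2-fold, 88 recomputed values kept their sign and 4 fell short of 2-fold: Nfkbiz with normexp (0.97 for 4-OHT against vehicle and -0.96 for vitamin E against 4-OHT), and Bcl3 for lutein against 4-OHT with normexp (-0.99) and spike-in scaling (-0.997). The count of members past 2-fold for lutein against 4-OHT was therefore 0 with normexp and 0 on spike-in scaling, and 2 on the median of detected probes. The shares of all genes that were lower were 1.39%, 3.05% and 4.01% in that order. After quantile normalization Nfkbia for vitamin E against 4-OHT passed 2-fold (-1.01), a count of 5, against 6.99% of all genes that were lower. At 1.5-fold, with both directions counted together, the counts were 8 for 4-OHT against vehicle, 6 for vitamin E against 4-OHT and 3 for lutein against 4-OHT. They were 1 for vitamin E against vehicle and 6 for lutein against vehicle. Tnfaip3 entered all 3 counts against vehicle as a lower gene (-0.73 with 4-OHT alone, -0.79 with vitamin E and -0.86 with lutein). For vitamin E against vehicle it was the only gene counted. The share of all genes at 1.5-fold was not computed. The median of the members for 4-OHT against vehicle was 1.08 with normexp and 1.23 where both arrays had to detect a gene, which leaves out Bcl3. For vitamin E against 4-OHT it was -0.88 with normexp, -0.85 with detection on both arrays and -1.10 on spike-in scaling. For vitamin E against vehicle it was 0.0033 with the mean of a gene's probes. On spike-in scaling the all-gene median shifted by -0.14 for 4-OHT against vehicle, 0.21 for vitamin E against 4-OHT and 0.11 for lutein against 4-OHT, and turned Tnfaip3 for vitamin E against 4-OHT to 0.15. Among all counted genes, 71.1% were higher with 4-OHT than with vehicle, against 55.4% on spike-in scaling and 62.7% after quantile normalization; for vitamin E against 4-OHT 14.4% were higher, against 33.3% on spike-in scaling and 30.0% after quantile normalization. For vitamin E against vehicle 35.6% were higher, against 45.8% on spike-in scaling, 45.6% after quantile normalization and 46.7% with normexp. All genes past 2-fold numbered 1252 with normexp against 2401 for 4-OHT against vehicle, 1176 against 2275 for vitamin E against 4-OHT, 390 against 1093 for lutein against 4-OHT, 180 against 655 for vitamin E against vehicle and 489 against 1051 for lutein against vehicle. With detection on both arrays the last 3 were 689, 347 and 677. Apart from the loss of Bcl3 named above, the cause was not tested. Signal over background limits Nfkbiz, Nfkb1, Rel and Birc3.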
